A study of Mus musculus with 18 samples.

Results

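Axon guidance genes encode secreted or membrane-bound cues and the receptors that read them. The set examined was every gene in the count tables whose name belonged to the semaphorins (Sema3 to Sema7), ephrins (Efna, Efnb), netrins, Slits, Eph receptors (Epha, Ephb), plexins, neuropilins, Unc5 receptors, Dcc or the Robo receptors. It held 68 of the 54352 gene names shared by the tables, 34 ligands and 34 receptors. The ligands were 20 semaphorins, 5 ephrin-A, 3 ephrin-B, 3 netrin and 3 Slit genes. The receptors were 9 EphA, 5 EphB, 9 plexin, 2 neuropilin, 5 netrin receptor and 4 Robo genes. Membership was decided by gene name, although the families were picked with earlier results of these data known.

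The study, by its title, concerns the acetylation of EED by CBP and P300, the targeting of PRC2 and the differentiation of mouse embryonic stem cells (mESCs). PRC2 is the Polycomb complex that methylates histone H3 at silenced genes, and EED is among its core subunits. RNA was sequenced from 18 libraries in 9 groups of 2. Knock-in mESCs with FLAG-tagged EED had either its wildtype sequence (FLAG-WT) or the K19R substitution, which puts arginine in place of a lysine (K19R). Both lines were sampled as mESCs in leukemia inhibitory factor (LIF) with inhibitors of MEK and GSK3 (2i) at day 0, and as embryoid bodies, suspended differentiating aggregates, without LIF or 2i at days 2, 6 and 10. The ninth group was wildtype mESCs without the knock-in, grown in LIF alone. The number of clones and the parentage of the lines are not given in the sources used here, so each line may stand for 1 clone. The labels do not state that replicates were separate cultures, so each p-value measures the spread between these libraries, which may be technical.

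Semaphorins signal through plexins, the class 3 members mostly with a neuropilin as co-receptor. Ephrins are anchored in the membrane and bind Eph receptor tyrosine kinases on the neighbouring cell, netrins bind Dcc and the Unc5 receptors, and Slits bind Robo receptors. The cues are named for growing axons, and they also act in the early embryo, where Eph and ephrin contacts sort cells and semaphorins and Slits guide migrating cells and vessels. Many genes of this kind have promoters rich in the dinucleotide CG, and such promoters are typical PRC2 sites in mESCs.

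Depth was 20158077 to 28917558 counts in the 16 FLAG-EED libraries and 14190166 and 37375083 in the wildtype mESCs. Levels are CPM, counts divided by library size after scaling by trimmed mean of M-values. The labelled stem cells held all 8 pluripotency markers listed, at a summed 5575 to 5850 CPM in the day 0 knock-in libraries and 428 to 498 CPM in FLAG-WT embryoid bodies at days 6 and 10. Markers of primitive and visceral endoderm summed to 18516 to 30612 CPM in the latter, and to 7186 to 19478 CPM in K19R at the same days. FLAG-WT day 0 replicate 2 stood apart in these markers, with 120 CPM against 29.2 in replicate 1. Each group is a bulk sample, in which fewer cells of a type and less RNA per cell cannot be told apart.

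Promoter windows from RefSeq (GRCm38.p6), the 250 bases before an annotated start of a gene, matched 58 of the 68 members with 74 windows. Windows are printed for a semaphorin lower in K19R, an Eph and a netrin receptor higher in K19R at day 6, and a neuropilin that changed direction, since these genes carry large line differences below. Capitals mark each CG, a motif that reads the same on both strands. Sema7a lies at chr9:57939862-57940111, Epha7 at chr4:28812881-28813130, Unc5a at chr13:54949161-54949410 and Nrp1 at chr8:128358823-128359072, each on the plus strand and written 5′ to 3′. The Nrp1 window lies inside the gene, which begins at 128358604, and precedes a later transcript start.
Sema7a: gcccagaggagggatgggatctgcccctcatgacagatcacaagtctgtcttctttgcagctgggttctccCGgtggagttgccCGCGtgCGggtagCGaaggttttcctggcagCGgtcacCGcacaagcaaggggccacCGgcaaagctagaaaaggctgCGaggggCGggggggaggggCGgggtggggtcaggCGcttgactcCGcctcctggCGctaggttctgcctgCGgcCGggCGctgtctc
Epha7: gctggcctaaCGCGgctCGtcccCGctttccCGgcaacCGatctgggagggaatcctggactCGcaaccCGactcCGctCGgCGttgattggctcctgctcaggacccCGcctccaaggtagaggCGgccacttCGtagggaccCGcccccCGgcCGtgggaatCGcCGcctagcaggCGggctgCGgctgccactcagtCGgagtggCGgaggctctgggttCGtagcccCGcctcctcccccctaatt
Unc5a: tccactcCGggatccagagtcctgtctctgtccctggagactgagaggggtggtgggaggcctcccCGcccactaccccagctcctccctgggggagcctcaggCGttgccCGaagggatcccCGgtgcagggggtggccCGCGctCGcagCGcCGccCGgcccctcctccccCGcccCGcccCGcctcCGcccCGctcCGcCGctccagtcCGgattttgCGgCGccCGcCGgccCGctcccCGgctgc
Nrp1: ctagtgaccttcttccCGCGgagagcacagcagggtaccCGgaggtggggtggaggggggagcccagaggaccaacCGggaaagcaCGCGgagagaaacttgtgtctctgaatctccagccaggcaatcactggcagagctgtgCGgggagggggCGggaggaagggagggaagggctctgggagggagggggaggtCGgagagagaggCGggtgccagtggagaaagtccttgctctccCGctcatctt
The motif CG occurs 17 times in the Sema7a window, 25 times in those of Epha7 and Unc5a, and 11 times in that of Nrp1. Of all 32851 windows, 23.5% hold at least 17, 10.7% at least 25 and 35.6% at least 11. Member windows held a median of 15.5 CG (range 0 to 46), and all windows a median of 6.0. With 1 window per tested member, the median was 21 for the 24 members higher in K19R at day 6, 17 for the 19 lower and 8.5 for the 12 that did not pass, with ranges of 0 to 46, 9 to 32 and 2 to 27 that overlap. By the day 2 calls the medians were 17, 19 and 13.5, and by the day 10 calls 15.5, 18 and 17, so that the members not called were not the lowest at day 10. PRC2 binding and histone marks were not analysed here.

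The FLAG-WT course shows how the set changed as cells with wildtype EED left the stem cell state. At day 0 Epha2 led the set per kilobase of exon (32.1 ± 0.66 CPM per kb, SD, n = 2), ahead of Epha4 (23.8 ± 0.14) and Plxna1 (20 ± 0.77), gaps larger than these spreads. By day 10 Plxnb2 led (92.7 ± 2.4 CPM per kb), and Unc5b (64.5 ± 6.5), Plxna1 (58.7 ± 0.95) and Sema7a (58.3 ± 8) followed at levels that did not differ beyond their spread. edgeR's quasi-likelihood test with Benjamini-Hochberg adjustment over all genes (threshold 0.05) called 49 of 65 tested members at day 2 against day 0 (27 higher, 22 lower), 54 at day 6 (30 and 24) and 58 at day 10 (31 and 27). Of all genes, 56.1%, 76.1% and 77.9% were called at those days, 28.5%, 37% and 37% higher and 27.6%, 39.1% and 40.9% lower. Epha3, Epha5 and Epha6 were not tested, with at most 18 counts in a library.

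Epha1, an Eph receptor, rose most in FLAG-WT. It held 0.124 and 0.356 CPM in the day 0 libraries, 19.7 and 17.4 on day 2, then 83.6 and 82.1 on day 6 and 58.1 and 66 on day 10. Every later library lay far above day 0, and the day 10 log2 change was 7.97 ± 0.20 (SE, edgeR adjusted p = 1.6e-22). Exons of a gene on the opposite strand cover 6.0% of Epha1, and counting used no strand. Without day 0 replicate 2, the higher of the day 0 pair, the change was 8.91. Sema3g, a class 3 semaphorin, held 0.206 and 0.0791 CPM at day 0 and 8.04 and 11.7 at day 10, groups that do not overlap (6.08 ± 0.42, edgeR adjusted p = 4.4e-13, and 6.87 without day 0 replicate 1). Sema4g, a membrane semaphorin, went from 5.2 and 5.22 CPM to 178 and 195 (5.16 ± 0.10, edgeR adjusted p = 1.8e-24).

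Robo4, the Robo receptor of endothelial cells, rose and then fell. FLAG-WT libraries held 4 and 3.8 CPM at day 0, 27.8 and 29.3 at day 2, then 2.28 and 1.05 on day 6 and finally 0.104 and 0.161 on day 10. The day 2 libraries were the highest and the day 10 libraries the lowest, with a day 10 log2 change of -4.83 ± 0.48 (SE, edgeR adjusted p = 7.4e-10). Ephb6, an EphB receptor without kinase activity, went from 4.75 and 4.86 CPM to 0.261 and 0.161 at day 10 (-4.47 ± 0.39, edgeR adjusted p = 5.5e-11). Sema4f went from 6.77 and 6.92 to 0.313 and 0.642 CPM (-3.83 ± 0.30, edgeR adjusted p = 7.8e-12, and -4.43 without day 10 replicate 2).

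In K19R cells most members also changed, and a few went the other way from FLAG-WT. Against K19R day 0, 50 members were called at day 2 (27 higher, 23 lower) beside 56.4% of all genes, 28.5% higher and 27.9% lower. The day 6 count was 49, 36 higher and 13 lower, beside 72.3% of all genes called, 37.1% higher and 35.2% lower. The day 10 count was 53, 34 higher and 19 lower, beside 73.9% called, 38.1% higher and 35.8% lower. The lines share no library, and at day 10 they had 28 members higher in both (43.1%, beside 30% of all genes), 15 lower in both (23.1%, beside 30.2%) and 5 opposite (7.69%, beside 3.64%). Sema7a and Epha2 were higher in FLAG-WT and lower in K19R at day 10, and Epha7, Sema3a and Slit2 the reverse. The fall of Sema3a in FLAG-WT rests on 9 counts at day 0 against 0 at day 10, at least 1.14-fold. Sema7a changed by 3.80 ± 0.11 log2 in FLAG-WT and by -0.39 ± 0.12 in K19R. Epha2 changed by 0.80 ± 0.08 and -0.47 ± 0.08, and Slit2 by -1.90 ± 0.37 and 0.91 ± 0.24. The K19R calls of Sema7a and Epha7 (0.69 ± 0.29) were not kept under every other setting tried.

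**Figure D1:**
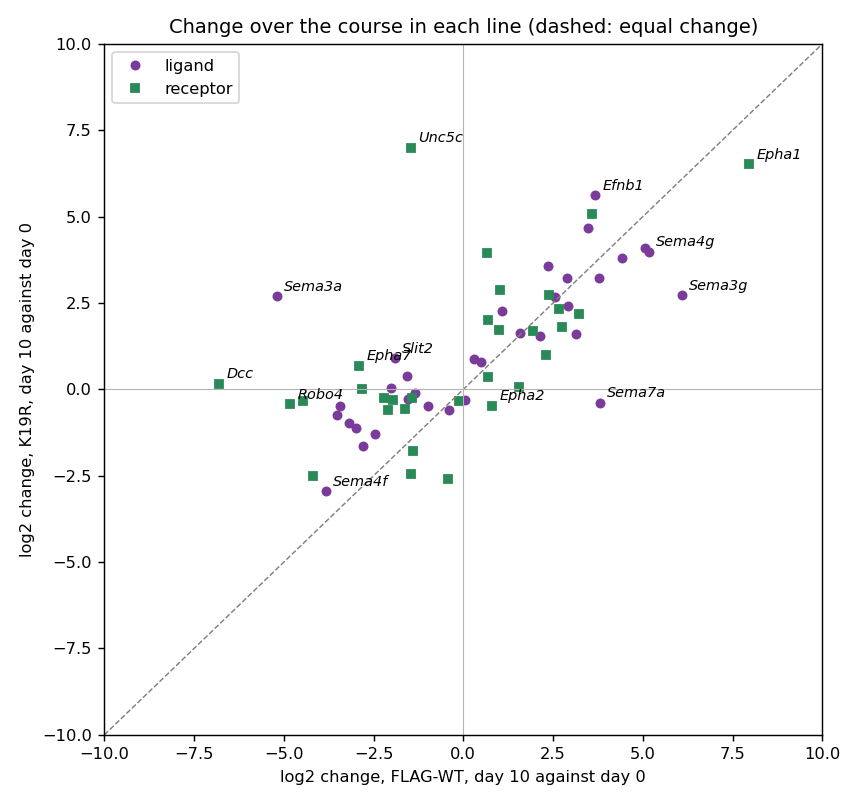
Each point is 1 of the 65 tested members, with its log2 change from day 0 to day 10 in FLAG-WT (x axis) and in K19R (y axis), ligands as circles and receptors as squares, and the dashed line marking equal change. Epha1 sits at 7.97 and 6.52, while Sema7a lies right of zero and just below it in K19R. Values of Sema3a and Dcc rest on FLAG-WT groups at 0 counts and depend on the fit's prior count.

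Comparing K19R with FLAG-WT on each day asks what the substitution goes along with before and during differentiation. At day 0, 10 members were called, 3 higher and 7 lower in K19R, where 10.5% of all genes were called, 5.51% higher and 4.98% lower. The day 2 count was 39 (22 higher, 17 lower) beside 41.8% of all genes, 20% higher and 21.8% lower. The day 6 count was 50 (28 higher, 22 lower) beside 58.5% of all genes, 28.4% higher and 30.1% lower. The day 10 count was 50 (31 higher, 19 lower) beside 58.4% of all genes, which also leaned to higher, at 33.2% higher and 25.2% lower. The members' median log2 change was -0.11, 0.27, 0.22 and 0.56 on the 4 days, and that of all genes -0.00, 0.00, 0.02 and 0.13. Medians were also taken with members at 0 counts set at their bound and members with few counts in both groups left out. The day 6 median, with 1 at its bound and 3 left out, was then 0.26, and the others were as given. Calls held in direction under every scaling, filter, test and left-out library tried for 1 member on day 0, and on days 2, 6 and 10 for 27, 42 and 37. Scaling by library totals only moved the median of all genes to 0.38 at day 6 and 0.44 at day 10, and the members called at day 10 were then 37 higher and 13 lower.

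Line differences turned over within single genes. There were 27 members (41.5% of those tested) called higher on some day and lower on another, beside 20.2% of all genes. For Efna1, Efna5, Efnb3, Ephb1, Ephb6, Ntn1 and Plxna1, all higher calls, all lower calls or both were lost under some setting. That also held for Plxna3, Robo1, Robo2, Sema3g, Sema4d, Sema7a and Unc5c. The share of all genes was not screened in this way. The same direction at days 2, 6 and 10 was called for 9 (13.8%), beside 12.7% of all genes. The latter were Sema3c, Sema3f, Sema4f and Efna2, higher, and Epha2, Epha4, Efna3, Sema4b and Sema4g, lower. Of these, Sema4g at day 2 and Sema4f at days 2 and 10 lost their calls when single libraries were dropped, and Sema4b at day 10 went from -0.31 to -0.00 with library totals only. Ntn5 was called on no day. Lower at day 2 and higher at day 10 were 9 members (13.8%, beside 7% of all genes), and 8 were the reverse (12.3%, beside 4.87%). The change of the line difference from day 0, the interaction of line and day, was called for 25 members at day 2, 41 at day 6 and 42 at day 10, where 27.1%, 44.5% and 45% of all genes were called. The split was 22 higher and 19 lower at day 6 and 26 and 16 at day 10, and with library totals only 27 and 8, then 36 and 9. Of all genes, 22.1% were higher and 22.4% lower at day 6, and 26.1% and 18.8% at day 10, in the main scaling.

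**Figure D2:**
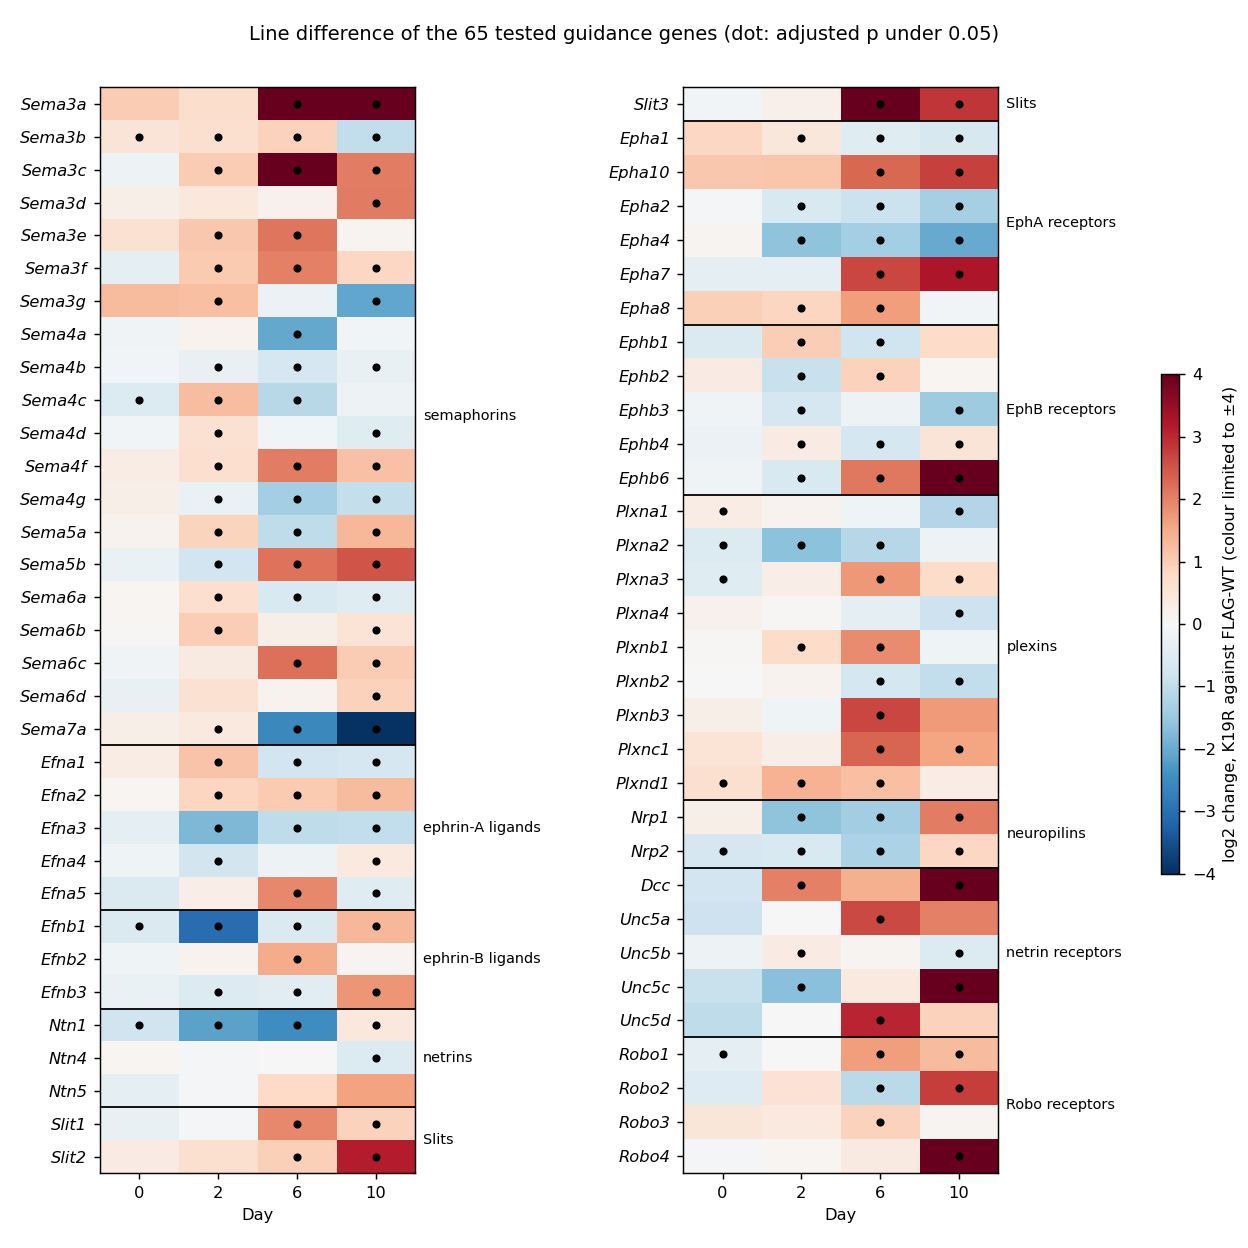
Rows are the 65 tested members by family and columns are days; colour is the log2 change of K19R against FLAG-WT, limited to 4 either way, and a dot marks an edgeR adjusted p under 0.05. Day 0 is pale with few dots, the Slits are red at days 6 and 10, and both neuropilins turn from blue at days 2 and 6 to red at day 10.

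Semaphorins leaned to the K19R side at day 2 and split later. Of 20, 12 were higher and 3 lower at day 2, then 8 and 7 on day 6 and 10 and 7 on day 10. Of all genes, 20%, 28.4% and 33.2% were higher on those days, and 21.8%, 30.1% and 25.2% lower. The semaphorins' median change at day 2 was 0.65. Of 7 class 3 members, the secreted ones, Sema3b, Sema3c, Sema3e, Sema3f and Sema3g were higher at day 2, and Sema3a, Sema3b, Sema3c, Sema3e and Sema3f at day 6, while none was lower on these days. At day 10, Sema3b and Sema3g were lower. The day 2 calls of Sema3b and Sema3g were lost under some settings, and the day 6 call of Sema3a, at 4 and 6 counts against 0, was lost without FLAG-WT replicate 1 (edgeR adjusted p = 0.054).

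Sema3c, a secreted semaphorin known from heart outflow and neural crest, differed most at day 6. FLAG-WT libraries held 0.386 and 0.175 CPM and K19R libraries 16.5 and 18.4. Both K19R libraries were far above both FLAG-WT libraries (log2 change 5.86 ± 0.28 SE, edgeR adjusted p = 2.5e-15, and 6.6 without FLAG-WT replicate 1). At day 0 the same gene held 3.8 and 5.46 CPM in FLAG-WT and 4.28 and 3.77 in K19R, groups that overlap, so the gap opened as FLAG-WT fell and K19R rose. Sema3a, the classical growth cone repellent, had 0 counts in both FLAG-WT libraries at day 10 and 58 and 59 in K19R. With 3 counts taken as the floor of each FLAG-WT library, K19R was at least 15.2-fold higher (edgeR adjusted p = 1.6e-08), at 2.31 and 2.5 CPM.

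Sema7a, the semaphorin anchored by a lipid and known as an integrin ligand, was the strongest difference the other way. At day 0 it held 13.7 and 13.9 CPM in FLAG-WT and 15.6 and 17.1 in K19R (0.24 ± 0.12, edgeR adjusted p = 0.22). At day 6 FLAG-WT held 42.7 and 41.9 and K19R 6.74 and 7.46, and at day 10 FLAG-WT held 174 and 211 and K19R 14.4 and 10.6. Every FLAG-WT library lay above every K19R library at both days (-2.57 ± 0.12 and -3.94 ± 0.11, edgeR adjusted p = 2.5e-15 and 1.9e-19). At day 2 its call was in the opposite direction (0.40 ± 0.13, edgeR adjusted p = 0.018), and leaving out any 1 of the 4 libraries ended that call, with edgeR adjusted p of 0.052 to 0.12. The gene is on chromosome 9, 57940112 to 57962865 on GRCm38, plus strand, right after the window printed above.

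Sema4c reversed within days. At day 2 FLAG-WT held 13.3 and 13.4 CPM and K19R 31 and 31.3, and at day 6 FLAG-WT held 40.9 and 42.9 and K19R 18.1 and 20.6. K19R was thus higher in both libraries at day 2 (1.22 ± 0.10, edgeR adjusted p = 1.2e-10) and lower in both at day 6 (-1.11 ± 0.09, edgeR adjusted p = 1.4e-10). Sema4c shares 7.3% of its exonic bases with a gene on the opposite strand, and counting used no strand, so reads there are uncertain. Sema4g was lower in K19R at day 6, with 48.6 and 50.8 CPM against 124 and 130 (-1.35 ± 0.08), and at day 10, with 104 and 89.5 against 178 and 195 (-0.95 ± 0.08). Sema4a at day 6, 10.2 and 10.6 against 42.1 and 45.1 CPM, was the other large decrease (-2.06 ± 0.11). Sema5b, Sema6c and Sema4f were higher in K19R at day 6 by 2.16 ± 0.19, 2.21 ± 0.16 and 2.06 ± 0.31.

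Ephrin-B genes moved in time. Efnb1, an X-linked ephrin that draws cell sorting boundaries, held 36.2 and 34.3 CPM in FLAG-WT at day 2 and 4.53 and 3.9 in K19R. At day 6 the values were 98.8 and 99.6 against 67.7 and 66.1, and at day 10 they were 107 and 93.5 against 237 and 273. K19R was below FLAG-WT in both libraries at days 2 and 6 and above in both at day 10. The log2 changes were -3.06 ± 0.12, -0.57 ± 0.09 and 1.34 ± 0.09 (edgeR adjusted p = 6.9e-17, 3.7e-06 and 9.3e-13). Over its own day 0 level, Efnb1 rose by 2.17 ± 0.11 at day 2 in FLAG-WT, while K19R changed by -0.30 ± 0.16 (edgeR adjusted p = 0.11) and rose by 3.69 ± 0.12 by day 6. At day 10 it led the K19R set per kilobase (73.9 ± 7.4 CPM per kb). Efnb2 was called at day 6 and on no other day, with 37.7 and 44.5 CPM in K19R against 15.6 and 13.6 (1.49 ± 0.10), and Efnb3 was higher at day 10 (1.77 ± 0.19) after lower calls at days 2 and 6 (-0.54 ± 0.18 and -0.43 ± 0.17) that were each lost when single libraries were dropped.

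Ephrin-A genes split. Efna3 held 5.33 and 4.96 CPM in K19R at day 2 against 16.2 and 19.8 in FLAG-WT, and both K19R libraries were lower at days 6 and 10 too (-1.81 ± 0.16, -1.03 ± 0.13 and -0.98 ± 0.14). A gene on the opposite strand covers 14.1% of its exonic bases. Efna2 was higher at days 2, 6 and 10 (0.87 ± 0.17, 1.06 ± 0.22 and 1.25 ± 0.21). Efna5 was higher at day 6, with 10.2 and 12.4 CPM against 3.31 and 2.69 (1.91 ± 0.21). Efna1 was higher at day 2 (1.14 ± 0.28), a call lost without FLAG-WT replicate 2, and lower at day 6 (-0.76 ± 0.14) and day 10 (-0.66 ± 0.13). At day 10 all 5 ephrin-A genes were called, 2 higher and 3 lower. Of all genes, 58.4% were called that day, 33.2% higher and 25.2% lower. Efna5 at day 10 (-0.47 ± 0.20, edgeR adjusted p = 0.048) was near the threshold, and its call was lost under some settings.

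Ntn1, netrin-1, was the member whose day 0 call held throughout. FLAG-WT held 25.2 and 26.6 CPM at day 0 and K19R 15.1 and 14.3. At day 2 the values were 22.1 and 23.1 against 5.33 and 4.89, and at day 6 they were 23.5 and 19.9 against 3.49 and 4.23. No K19R library reached the FLAG-WT range on these days (-0.81 ± 0.11, -2.14 ± 0.12 and -2.49 ± 0.13, edgeR adjusted p = 1.7e-05, 1.7e-13 and 2e-14). At day 10 FLAG-WT held 8.82 and 9.15 and K19R 11.5 and 12.7 (0.43 ± 0.13, edgeR adjusted p = 0.0061), a call lost without K19R replicate 2 (edgeR adjusted p = 0.054). Ntn4 was lower in K19R at day 10 (-0.56 ± 0.21) and lost that call with library totals only and without FLAG-WT replicate 1 or K19R replicate 2.

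All 3 Slits, the secreted ligands of Robo receptors, were higher in K19R at days 6 and 10, days on which 28.4% and 33.2% of all genes were higher. Slit3 (chromosome 11, 35121224 to 35708507) held 20.3 and 19.3 CPM in FLAG-WT at day 0 and 17.6 and 19 in K19R. At day 6 FLAG-WT held 2.92 and 2.22 and K19R 66.3 and 77.8, and at day 10 FLAG-WT held 1.36 and 2.3 and K19R 11.8 and 14.6. The day 0 pairs lay close (-0.11 ± 0.12, edgeR adjusted p = 0.65) and the later ones far apart (4.78 ± 0.16 at day 6 and 2.85 ± 0.19 at day 10, edgeR adjusted p = 5.6e-18 and 1.8e-12). Slit2 held 3.47 and 4.03 CPM in K19R at day 10 against 0.366 and 0.482 (3.13 ± 0.33, edgeR adjusted p = 9.9e-09), and its smaller day 6 difference (0.95 ± 0.36) lost its call whichever 1 of the 4 libraries was dropped, with edgeR adjusted p of 0.053 to 0.12. Slit1 was higher at day 6 (1.92 ± 0.29), and its day 10 call (0.93 ± 0.35, edgeR adjusted p = 0.024) was lost in the absence of either FLAG-WT library or of K19R replicate 1 (edgeR adjusted p = 0.088, 0.079 and 0.16).

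Robo receptors followed on different days. Robo1 held 51.3 and 65 CPM in K19R at day 6 against 17.9 and 18.6 in FLAG-WT, and 30.4 and 29.4 against 11.6 and 13 at day 10 (1.68 ± 0.11 and 1.28 ± 0.12). Robo4 held 3.35 and 2.25 CPM at day 10 against 0.104 and 0.161, with FLAG-WT at 2 and 3 counts (4.36 ± 0.51, edgeR adjusted p = 5.9e-08). Robo2 held 9.17 and 9.25 against 1.62 and 1.07 (2.77 ± 0.26), while its day 6 call was lower (-1.08 ± 0.35) and was lost with library totals only (edgeR adjusted p = 0.077). At days 6 and 10 K19R libraries were thus above FLAG-WT for Slits and for Robo1. Neuron markers also differed between the lines. The 10 markers summed to 98.4 and 115 CPM in K19R at day 6 against 13.5 and 12 in FLAG-WT. At day 10 the sums were 54.9 and 43.5 against 6.06 and 7.71. Dcx had 0 counts in both lines at day 6 and in FLAG-WT at day 10. The day 0 sums were 287 and 266 in K19R and 287 and 287 in FLAG-WT. Both sums thus fell from day 0, and that of FLAG-WT fell further. By marker the lines differed. Of 9 tested against day 0, K19R had 5 higher and 4 lower at day 6 (median log2 change 0.69), and FLAG-WT 0 and 7 (-2.56). At day 10 K19R had 1 and 6 (-1.20), and FLAG-WT 0 and 7 (-3.56). Between the lines, 8 of the 9 were higher in K19R and 0 lower on each day, where 28.4% and 33.2% of all genes were higher. Neural progenitor markers, with Nes on top, summed to 84.4 and 88.5 CPM in K19R against 70.8 and 58.8 at day 6. By day 10 the order of the sums had turned, with 54.6 and 53.1 against 179 and 156. The single markers did not all follow. Of 7 tested, 2 were higher and 1 lower in K19R at day 6 (median log2 change 0.35), and 3 and 2 at day 10 (1.68). Endothelial markers summed to 57.4 and 45.4 against 23.3 and 21.6 at day 6, and to 86.9 and 71.4 against 58.6 and 82.3, which overlap, at day 10. Pluripotency markers were also higher in K19R, at 762 and 690 CPM against 458 and 428 at day 6 and 983 and 819 against 498 and 468 at day 10, with 6 of 8 called higher and 2 lower on both days. Of 7 tested fibroblast and mesenchyme markers, 5 were higher and 2 lower in K19R at day 10, and the 8 listed summed to 195 and 214 CPM against 123 and 119. The part of all these markers in the result was not tested.

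Of 6 tested EphA receptors, 2 were higher and 2 lower at day 2, 3 and 3 at day 6, and 2 and 3 on day 10. All 5 EphB receptors were called at day 2, 2 higher and 3 lower. Of all genes, 41.8%, 58.5% and 58.4% were called at days 2, 6 and 10. Epha2 (chromosome 4, 141301240 to 141329384), the most abundant receptor per kilobase at day 0, held 321 and 299 CPM in FLAG-WT at day 2 against 209 and 195 in K19R, 185 and 177 against 90.4 and 109 at day 6, and 261 and 263 against 110 and 100 at day 10. Epha4, which binds ephrins of both classes, held 88.6 and 86.9 against 29.4 and 28.3 at day 2 and 140 and 142 against 33.7 and 36 at day 10. For both genes each K19R library was below each FLAG-WT library from day 2 on, and neither was called at day 0. Their changes at day 10 were -1.32 ± 0.08 and -2.02 ± 0.08 (edgeR adjusted p = 1.4e-13 and 2.3e-17).

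Epha7 and Ephb6 were higher in K19R at days 6 and 10. Epha7 (chromosome 4, 28813131 to 28967499) held 3.69 and 4.19 CPM in K19R at day 6 against 0.773 and 0.409, and 1.72 and 2.38 against 0.313 and 0.107 at day 10. All K19R libraries were above all FLAG-WT libraries on these days (2.67 ± 0.32 and 3.24 ± 0.45, edgeR adjusted p = 5.6e-08 and 7.5e-07). Without FLAG-WT replicate 1, the higher of each pair, the changes were 3.26 and 4.19. Ephb6, lower in K19R at day 2 (-0.61 ± 0.23) by a call that was lost when single libraries were dropped, held 4.35 and 2.46 CPM at day 10 against 0.261 and 0.161 (3.98 ± 0.41, edgeR adjusted p = 5.7e-09). Ephb3 was lower at day 10, with 54.8 and 42.8 CPM against 112 and 150 (-1.43 ± 0.11). Epha1 rose in both lines, and at day 10 K19R held 38.9 and 41.4 CPM against 58.1 and 66 (-0.63 ± 0.10).

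Both neuropilins turned. Nrp1 held 3.41 and 2.17 CPM in FLAG-WT at day 2 against 0.835 and 0.95 in K19R, 5.32 and 5.72 against 2.09 and 2.08 at day 6, and 4.07 and 4.5 against 16.4 and 19.5 at day 10. Nrp2 held 41.3 and 42.3 against 28.4 and 26.9, then 55.3 and 57.6 against 24.3 and 22.3, then 30.8 and 35.6 against 58.4 and 59. K19R was lower in both libraries at days 2 and 6 and higher in both at day 10, without overlap. The changes were -1.62 ± 0.26, -1.40 ± 0.22 and 2.06 ± 0.18 for Nrp1 (edgeR adjusted p = 1.6e-05, 4.1e-06 and 4.9e-10), and -0.60 ± 0.10, -1.28 ± 0.10 and 0.82 ± 0.10 for Nrp2. Sema3a, which uses Nrp1, and Sema3c and Sema3f, which use Nrp2, were higher in K19R at day 10. Among the other class 3 members that day, Sema3d was higher, Sema3b and Sema3g were lower, and Sema3e did not pass. Sema3c and Sema3f were also higher at days 2 and 6, when both neuropilins were lower.

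**Figure D3:**
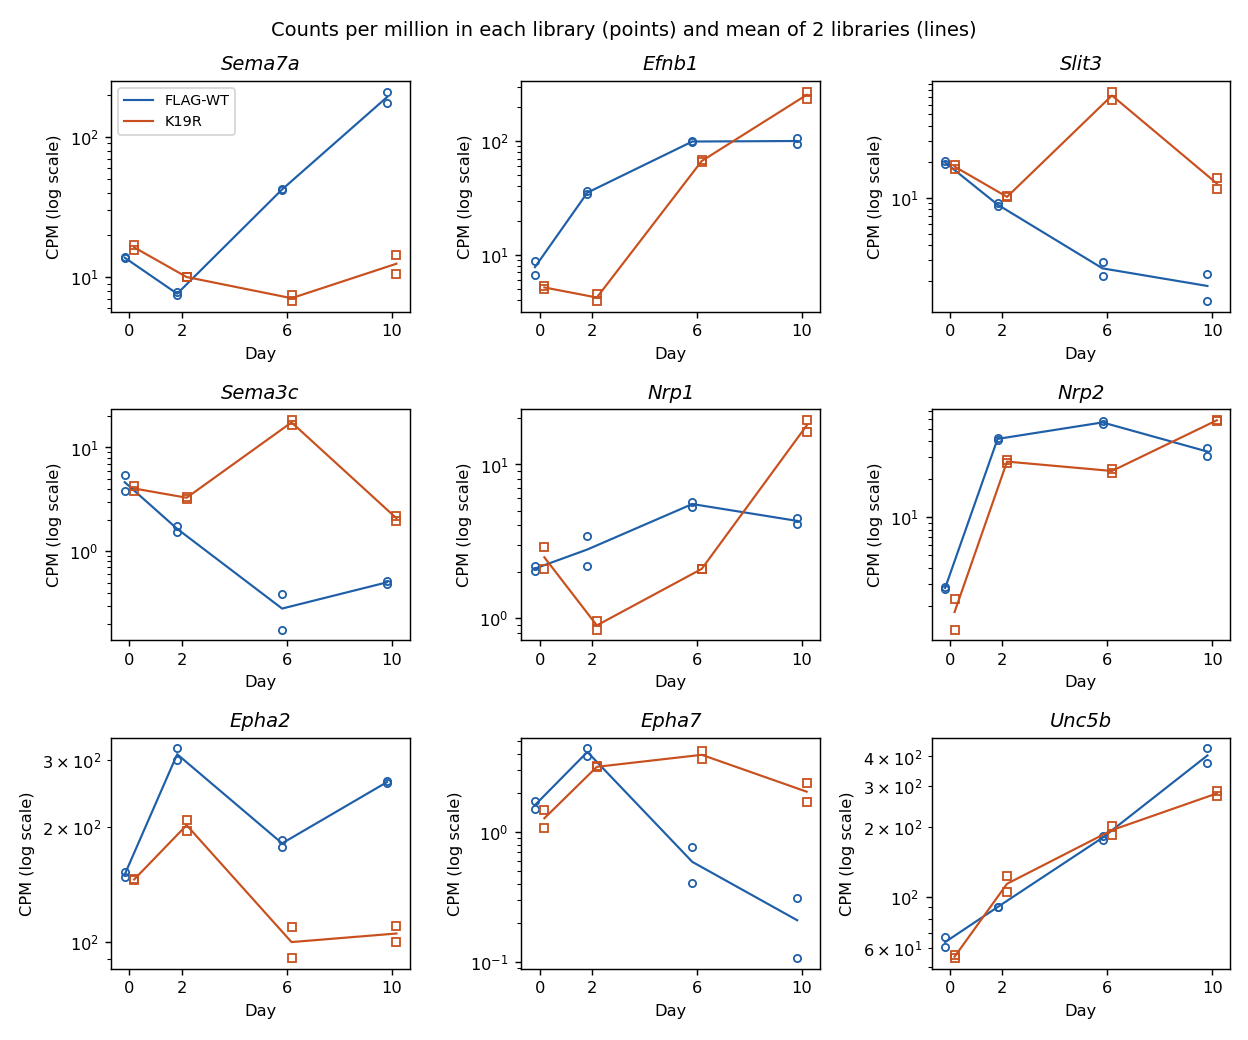
CPM on a log axis (y) by day (x) for 9 members; circles are FLAG-WT and squares K19R libraries, and lines join the means of 2. K19R lies below FLAG-WT at day 6 and above it at day 10 for Efnb1, Nrp1 and Nrp2, far above at day 6 for Slit3 and Sema3c, and far below at day 10 for Sema7a (14.4 and 10.6 against 174 and 211).

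Plexins, the semaphorin receptors, were called for 7 of 9 at day 6 (5 higher, 2 lower) and 5 of 9 at day 10 (2 higher, 3 lower). Of all genes, 58.5% and 58.4% were called on those days. At day 10 Plxnb2 and Plxna1, both abundant, were lower in K19R. Plxnb2 held 703 and 729 CPM in FLAG-WT at day 10 against 385 and 347, and Plxna1 538 and 526 against 246 and 228. Both fell short of FLAG-WT in each library (-0.97 ± 0.08 and -1.16 ± 0.09, edgeR adjusted p = 6.3e-11 and 8.2e-11). At day 6 Plxnb2 was lower too (-0.70 ± 0.08), while Plxna1 did not pass (-0.16 ± 0.09), and at day 0 Plxna1 was higher (0.31 ± 0.09, edgeR adjusted p = 0.032), by a call not kept under every setting. Opposite-strand exons cover 10.7% of Plxna1. Plxna2 was lower at day 2, with 5.49 and 3.67 CPM against 14.3 and 14.1 (-1.63 ± 0.14), and at day 6 (-1.13 ± 0.11). Plxnd1, the receptor of Sema3e on vessels, was higher at day 2, with 19.6 and 16.9 against 7.16 and 6.9 CPM (1.38 ± 0.15), and at day 6 (1.19 ± 0.15). Its ligand Sema3e was higher on the same days, with 15.4 and 15.6 against 7.59 and 7.17 CPM (1.07 ± 0.15) and 17.3 and 19.3 against 3.78 and 4.61 (2.14 ± 0.17). Plxnb1 and Plxna3 were higher at day 6 (1.89 ± 0.15 and 1.74 ± 0.15).

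Of 5 netrin receptors, 3 were called at day 2, 2 at day 6 and 3 at day 10, beside 41.8%, 58.5% and 58.4% of all genes. At day 2 Dcc (2.03 ± 0.52) and Unc5b (0.34 ± 0.08) were higher in K19R and Unc5c was lower (-1.68 ± 0.64), the last a call lost whichever 1 of the 4 libraries was dropped. Unc5c had 0 and 1 count in FLAG-WT at day 10 and 102 and 184 in K19R, a ratio of 222 with an exact 95% binomial interval of 39.6 to 8816 that covers counting error only (edgeR adjusted p = 6.9e-10). Dcc had 0 counts in FLAG-WT and 9 in each K19R library, at least 2.33-fold higher (edgeR adjusted p = 0.00072). Unc5a (chromosome 13, 54949411 to 55006018) held 2.49 and 2.96 CPM in K19R at day 6 against 0.687 and 0.117. Its FLAG-WT libraries had 16 and 2 counts, so the change of 2.63 ± 0.44 (edgeR adjusted p = 1.2e-05) was 4.49 without replicate 1 and 1.97 without replicate 2. Unc5b, the abundant member, rose in both lines, to 433 and 375 CPM in FLAG-WT and 284 and 271 in K19R at day 10 (-0.54 ± 0.08, edgeR adjusted p = 1.3e-06).

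At day 0 the lines differed little in this set. Besides Ntn1, the largest calls were Nrp2 (-0.67 ± 0.21), Plxnd1 (0.63 ± 0.16), Efnb1 (-0.59 ± 0.14), Sema4c (-0.55 ± 0.16) and Plxna2 (-0.54 ± 0.15), with edgeR adjusted p from 0.0087 to 0.042. Plxnd1 held 6.56 and 7.04 CPM in FLAG-WT and 11.4 and 9.63 in K19R, and Nrp2 2.72 and 2.81 against 1.29 and 2.28. In neither case did the pairs overlap, but Nrp2 went to -0.28 (edgeR adjusted p = 0.6) without K19R replicate 1, its lower library. Fewer members were called in smaller fits: 3 and 2 when FLAG-WT replicates 1 and 2 were dropped in turn, and 2 and 4 for K19R replicates 1 and 2. The Efnb1 change became -0.37 (edgeR adjusted p = 0.26) when FLAG-WT replicate 2, the library with more endoderm transcript, was dropped.

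Summed over genes, every day 10 library of both lines stood above its day 0 libraries. Receptors summed to 871 and 884 CPM in FLAG-WT at day 0 and 2478 and 2486 at day 10, and to 879 and 932, then 1493 and 1417 CPM in K19R. Ligands summed to 374 and 373, then 1013 and 1048 CPM in FLAG-WT, and to 341 and 345, then 832 and 863 CPM in K19R. At day 10 both K19R libraries were below both FLAG-WT libraries in either sum. With library totals only, a scaling added after seeing the data, the receptor order held (1526 and 1411 against 2060 and 1999), while the ligand order turned (851 and 859 against 842 and 843). Single genes did not all follow the sums. At day 10, 13 of 31 tested receptors were higher in K19R and 8 lower, and 18 of 34 ligands higher and 11 lower. Of all genes, 33.2% were higher and 25.2% lower. The abundant receptors Plxnb2, Plxna1, Unc5b and Epha2 were lower, at means of 366, 237, 277 and 105 CPM against 716, 532, 404 and 262. More members reached 1 CPM in K19R, 54 and 55 at day 10 against 44 and 45 in FLAG-WT. Endoderm markers summed to 19478 and 19150 CPM in K19R at day 10 against 30157 and 30612. Of the 10 markers, 1 was higher in K19R, 4 were lower and 5 did not pass, with a median log2 change of -0.10. The part of these markers in the result was not tested.

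**Figure D4:**
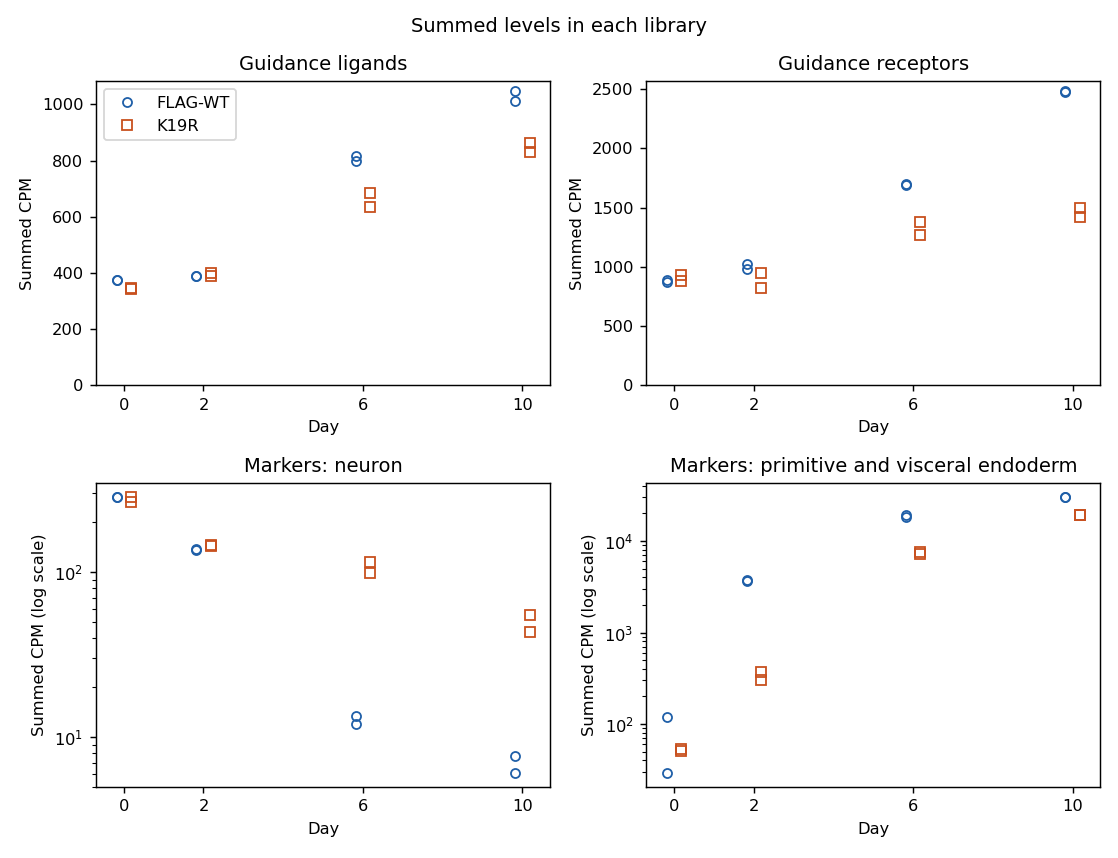
Summed CPM of guidance ligands and receptors (upper panels, linear axis from 0) and of neuron and endoderm markers (lower panels, log axis) by day, with each library as a point. Receptor sums of FLAG-WT reach 2478 and 2486 at day 10, above the K19R pair. Neuron markers are higher in K19R at days 6 and 10, when both lines lie below their day 0 sums.

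Genes that carry guidance signals inside the cell or modify the receptors, a list of 60 of which 59 were tested, had no direction that held under every scaling at days 6 and 10. At day 0, 5 were higher and 5 lower, beside 5.51% and 4.98% of all genes. The day 2 counts were 11 higher and 16 lower, the day 6 counts 19 and 25, and the day 10 counts 18 and 26. Of all genes, 20%, 28.4% and 33.2% were higher at days 2, 6 and 10, and 21.8%, 30.1% and 25.2% lower. The median change of the list was -0.03, -0.06, -0.11 and -0.21 on the 4 days. With library totals only, added after seeing the data, 32 were higher and 18 lower at day 6 and 24 and 15 at day 10, with medians of 0.25 and 0.10. Some collapsin response mediators, which relay semaphorin signals to the cytoskeleton, were among those higher. Crmp1 stood at 54.5 ± 9.6 CPM (SD, n = 2) in K19R at day 6 against 5.59 ± 1.1 (3.26 ± 0.15 SE). Dpysl5 stood at 8.78 ± 0.061 against 1.30 ± 0.015 at day 10 (2.76 ± 0.19). Crmp1 at day 10 was higher by 4.58 ± 0.32. Others of the family were mixed. Dpysl3 was higher at days 0, 6 and 10 (0.74 ± 0.08, 1.74 ± 0.11 and 0.64 ± 0.11) and lower at day 2 (-0.38 ± 0.09). Dpysl4 was higher at day 0 (0.63 ± 0.14) and lower at days 2 and 6 (-1.14 ± 0.23 and -0.48 ± 0.20). Dpysl2 was higher at day 6 (1.79 ± 0.23) and did not pass at day 10 (-0.50 ± 0.23). Rac1, the GTPase, was lower at day 0 (-0.34 ± 0.07).

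Other partners were lower. Flrt3, an adhesion protein that binds Unc5 receptors, stood at 10.2 ± 0.84 CPM in K19R at day 2 against 128 ± 3.9 in FLAG-WT (-3.65 ± 0.10, edgeR adjusted p = 4.7e-20). Srgap1, which acts downstream of Robo, was lower at day 2 (-2.25 ± 0.14). Mical2, of a family of actin oxidases, stood at 16.3 ± 0.13 against 87.2 ± 1.2 at day 6 and 48.8 ± 0.88 against 218 ± 24 at day 10. Rnd1, a GTPase that binds plexins, stood at 3.12 ± 0.039 against 42 ± 4.6 at day 10 (-3.75 ± 0.20). Cntn2, a neural adhesion protein, was higher at day 6 (3.29 ± 0.29, and 4.49 without FLAG-WT replicate 1). The day 0 calls of L1cam (1.03 ± 0.32) and Rgmb (-0.55 ± 0.13), and that of Dpysl2 at day 2 (0.84 ± 0.29), were lost when single libraries were left out, L1cam with edgeR adjusted p from 0.13 to 0.27, Rgmb from 0.062 to 0.082 and Dpysl2 at 0.15 and 0.2.

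Wildtype mESCs in LIF were set against FLAG-WT mESCs in LIF and 2i. The groups differ in medium, in the knock-in and in the count table, which cannot be told apart. There were 47 members called, 24 higher and 23 lower in the wildtype cells, beside 64.9% of all genes, 32.4% higher and 32.5% lower. Epha1 held 21.6 and 19.2 CPM against 0.125 and 0.36 (6.33 ± 0.23, edgeR adjusted p = 4.9e-19, and 7.28 without FLAG-WT replicate 2). Sema3e held 25.1 and 27.7 against 1.33 and 0.679 (4.72 ± 0.19), and Nrp2 56.2 and 58.3 against 2.75 and 2.84 (4.36 ± 0.13). The pairs lay far apart in each case. Unc5a held 2.21 and 2.71 against 0.417 and 0.4 (2.61 ± 0.41). Epha4 (-1.78 ± 0.07), Slit3 (-1.81 ± 0.14) and Sema7a (-1.64 ± 0.14) were lower in the wildtype cells.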

How the data were processed

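RNA-seq counts per gene were analysed as the authors deposited them. Per the file headers, featureCounts 1.6.3 (FLAG-EED table) and 1.6.4 (wildtype table) counted fragments over exons by gene name with GENCODE M19 and no strand option. STAR 2.7.0c and Trim Galore 0.6.0 are listed in the submitters' processing notes, beside bcl2fastq 2.17 and FastQC 0.11.7.

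Genes were filtered by filterByExpr with the groups given. It asks for a level equal to 10 counts at median library size in at least 2 libraries, and 15 counts in total. This left 19092 genes in the 16 FLAG-EED libraries and 19296 in all 18, and 65 of 68 members. edgeR 4.0.16 (R 4.3.3, limma 3.58.1) fitted quasi-likelihood models with a mean per group and trimmed mean of M-values scaling. Changes passed at a Benjamini-Hochberg adjusted p under 0.05 over all genes, and SE came from the F statistic. The fit had 8 residual degrees of freedom. Scripts were tested on simulated data.

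Members and lists were chosen with earlier results of these data known. Members named in full were up to 6 with the largest change between lines on each day at 2 CPM or more in the higher group, 3 each way for FLAG-WT day 10 against day 0, 4 for the wildtype cells and 2 signalling genes each way a day. Others are named with their family. Alternatives were other scaling, no filter, a replicate block, DESeq2 1.42.0, libraries of that day alone and each library left out. Depth and the 2 libraries a group limit precision for genes with few counts.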

Additional observations from a re-analysis of the deposited data

Results flagged for a closer look

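The difference between the lines changed from day 0 by the test of line and day together (edgeR, adjusted over all genes) for 25 members at day 2, 41 at day 6 and 42 at day 10. Of all genes, 27.1%, 44.5% and 45% were called on those days. Each value here is the K19R against FLAG-WT log2 change on the day minus that at day 0.

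Among ligands, Efnb1 changed by -2.47 ± 0.19 (SE), Efna3 by -1.42 ± 0.24 and Sema4c by 1.77 ± 0.19 at day 2. At day 6 the values were 6.06 ± 0.36 for Sema3c, 4.89 ± 0.20 for Slit3, -1.68 ± 0.17 for Ntn1, -1.58 ± 0.16 for Sema4g, 1.78 ± 0.37 for Sema4f and 1.53 ± 0.36 for Sema3e. The Sema3e value was 0.98 without FLAG-WT day 0 replicate 1 (edgeR adjusted p = 0.095). At day 10 they were -4.18 ± 0.16 for Sema7a and -3.36 ± 0.76 for Sema3g. Sema3a, with FLAG-WT at 0 counts at day 10, had a fitted 7.88, which depends on the prior count.

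Among receptors, Plxna2 changed by -1.09 ± 0.20 and Plxnd1 by 0.75 ± 0.23 at day 2, the latter with edgeR adjusted p of 0.058 to 0.073 when any of 4 single libraries was dropped. Unc5a changed by 3.45 ± 0.80 at day 6. At day 10 the values were 1.84 ± 0.31 for Nrp1, 1.49 ± 0.23 for Nrp2, -2.14 ± 0.10 for Epha4, 3.59 ± 0.56 for Epha7, 4.40 ± 0.59 for Robo4 and 4.12 ± 0.48 for Ephb6. Epha1 changed by -1.45 ± 0.53, and by -0.90 when FLAG-WT day 0 replicate 1 (edgeR adjusted p = 0.21) or K19R day 0 replicate 2 (0.31) was dropped, and its adjusted p was 0.072 with library totals only. Unc5c had a fitted 8.45 that rests on at most 3 counts in each day 0 library, with edgeR adjusted p = 0.067 once FLAG-WT day 0 replicate 1 was dropped.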

How the results depend on the processing

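Of 142 recomputed counts of members called, 138 stayed within 1.5 times the main count. The other 4 were at day 0 between the lines, where 10 members became 2 to 4 with 1 library left out; the cause was not tested. Their split, 3 higher and 7 lower as reported, was 6 and 8 when the libraries of that day alone were fitted. Of 490 recomputed values of 50 named gene and comparison pairs, 464 kept their side of the threshold, 26 no longer passed and 0 reversed. Replicate numbers did not pair the libraries (correlations of deviations from -0.03 to 0.04 over 36 pairs of groups). With the replicate number as a block, 10, 39, 50 and 49 members were called between the lines at days 0, 2, 6 and 10. Genes with few counts, such as Unc5a, Unc5c and Dcc, are limited by depth.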
